A study of Mus musculus with 12 samples.

Results

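The G2 and mitosis genes described here are 46 genes chosen by name: cyclins and kinases that start mitosis, spindle, kinetochore and kinesin genes, and genes of cell division itself. All 46 were found among the 23337 gene symbols counted, and all 46 passed the filter on low counts. Counts came from 12 RNA libraries of mouse oesophageal epithelium, peeled mechanically from the stroma of C57BL/6 mice aged 6 weeks, with 3 libraries in each of 4 genotype groups. Control mice (ROSA26-StopFL-Ikk2ca+/L; Stat3L/L) carried both engineered alleles and no Cre, so neither should be recombined. The Stat3 loss group (ED/L2-Cre+; Stat3L/L) had the floxed Stat3 alleles and a Cre under the Epstein-Barr virus ED/L2 promoter, active in oesophageal epithelium. The active IKKβ group (ED/L2-Cre+; ROSA26-StopFL-Ikk2ca+/L) had the same Cre and the allele of constitutively active IKKβ behind a stop cassette. The combined group (ED/L2-Cre+ with ROSA26-StopFL-Ikk2ca+/L and with Stat3L/L) had the Cre and both alleles. Cre therefore separates Control from each other group, but not the combined group from either single change. The Stat3 loss group also lacks the silent Ikk2ca allele that Control carries, and the active IKKβ group lacks the floxed Stat3 alleles. The labels do not say that libraries of a group came from separate animals, so p-values measure the spread between these libraries, which may be technical.

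Cells enter mitosis when Cdk1 bound to a B-type cyclin becomes active, and they leave it when the anaphase-promoting complex has marked securin and the cyclins for destruction. In between, kinetochores attach chromosomes to the spindle, a checkpoint waits until all are attached, and the central spindle directs the cut between daughter cells. Transcripts of these genes build up together late in the cell cycle. In the mouse oesophagus the dividing cells lie mainly in the basal layer. Bulk levels therefore depend on how many cells divide and on RNA per dividing cell, which cannot be told apart here.

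Libraries held 14816468 to 30188363 counts. Basal markers were detected in every library (0 of 19 at a count of 0), as were suprabasal markers (0 of 19). Stat3 had 157 to 179 CPM (the usual depth-scaled count, here with TMM-adjusted library sizes) in Control, 139 to 154 with Stat3 loss, 158 to 239 with active IKKβ and 154 to 194 in the combined group. Its log2 fold change was -0.22 ± 0.15 (SE) with Stat3 loss against Control, without overlap (6.1% of genes tested lower). It was -0.26 ± 0.15 in the combined group against active IKKβ, with overlap. Neither was called (edgeR adjusted p = 0.788 and 0.598). Gene counts thus showed only a small fall and could not verify the deletion. The labels do not say which part of the gene is removed, and groups are called here by their labels. Ikbkb had 59.7 to 82.6 CPM in Control, 61.2 to 72.4 with Stat3 loss, 84.6 to 97.7 with active IKKβ and 83.4 to 97.0 in the combined group. Gastric transcripts (12 markers) summed to 1710 CPM in active IKKβ replicate 1 and 113 CPM in Stat3 loss replicate 3, against at most 19.0 CPM in the other libraries.

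Across the groups the 46 genes shared their low end, the active IKKβ group. All 46 had their lowest group mean there, and 27 had all 3 active IKKβ libraries below the 9 others, which held for 1.85% of all genes tested. The mean over the 46 genes was 4.73 ± 0.19 log2 CPM in Control (SD, n = 3 libraries), 4.94 ± 0.31 with Stat3 loss, 4.12 ± 0.32 with active IKKβ and 4.98 ± 0.33 in the combined group. The highest group mean lay in the combined group for 28 genes, with Stat3 loss for 13 and in Control for 5. Single libraries stood at the ends: active IKKβ replicate 3 was the lowest of 12 for 42 genes, and combined replicate 3 the highest for 35. Each gene was close to the mean of the other 45 across the 12 libraries, with a median Pearson r of 0.94 (0.57 for Pbk, 0.65 for Smc2 and 0.76 for Mad2l1 at the low end). The 46 genes share libraries and depth, so they are not 46 separate observations.

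**Figure D1:**
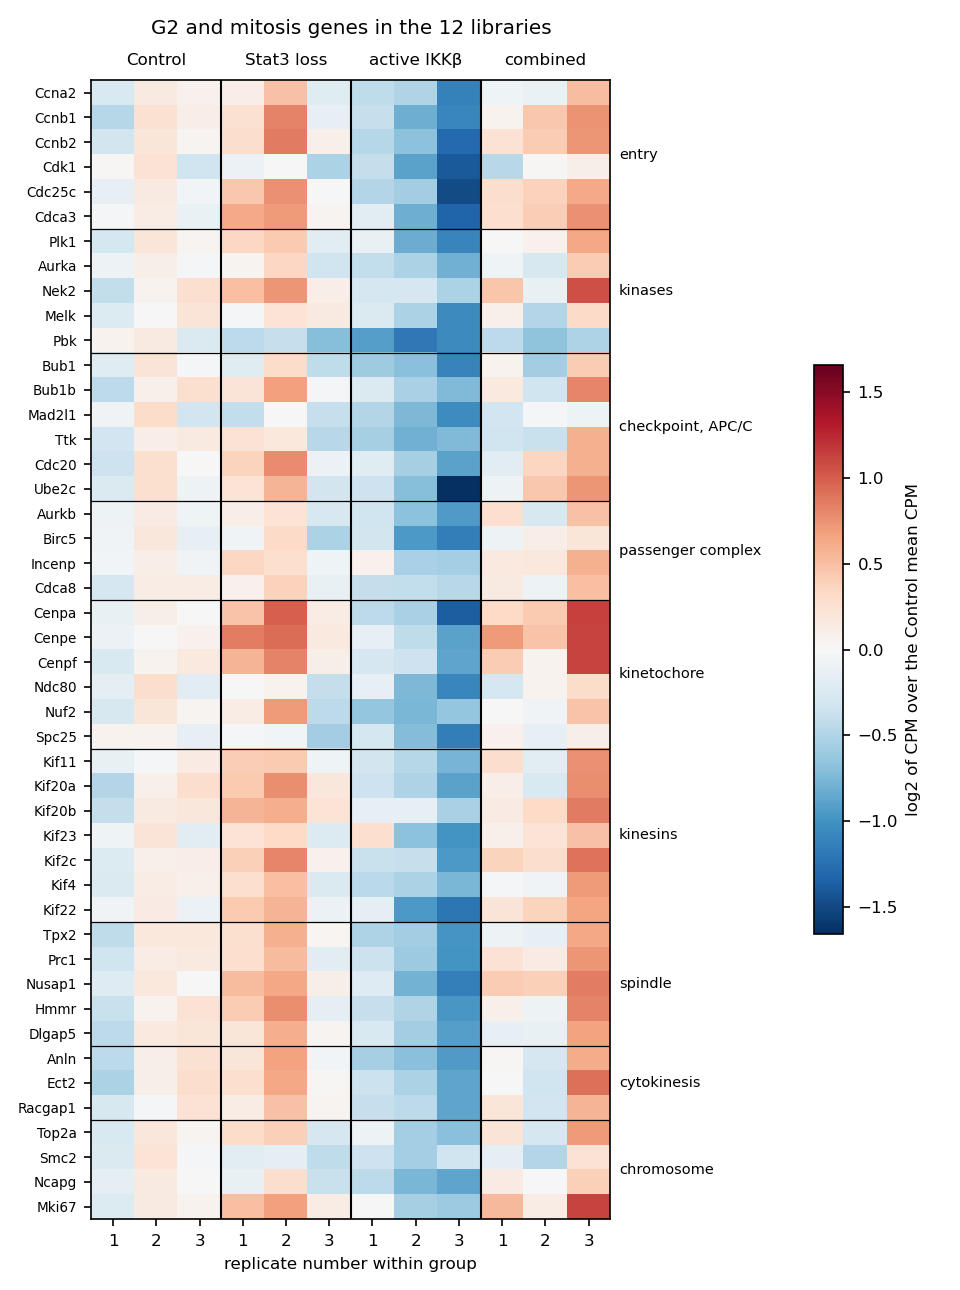
Each row is a gene and each column a library, coloured by log2 of its CPM over the Control mean; horizontal lines separate the 9 functional classes. The active IKKβ columns are blue in nearly every row, most in replicate 3, and the combined group is reddest in replicate 3.

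The genes also share promoter sequence. A cell cycle homology region (CHR; TTTGAA or TTCGAA), bound by the MuvB-containing DREAM and MYB complexes, and CCAAT boxes, bound by NF-Y, are the known elements of late cell cycle promoters. RefSeq promoter windows (GRCm38.p6, 250 bases before the start to 50 from it) were matched by symbol for 38 of the 46 genes. Those not matched were Ccna2, Cdc25c, Pbk, Aurkb, Incenp, Kif20a, Tpx2 and Dlgap5. Read on both strands, a CHR lay in 30 of the 38 genes and in 80.0% of their 40 windows, against 13.7% of windows of all genes tested and 20.4% of windows of DNA replication genes. CCAAT was found in 77.5% of windows, against 37.2% of windows of genes tested, and both elements in 70.0% against 5.63%. These elements are not particular to the 46. In 74 windows of other G2 and mitosis genes the shares were 62.2% for a CHR, 67.6% for CCAAT and 45.9% for both. In replication windows they were 53.1% for CCAAT and 12.2% for both. Letters of these motifs can share bases with each other: a CHR can share an end base with a CCAAT box, and the end of a STAT match can be a CHR. The STAT letters TTCNNNGAA were in 0.0% of the 40 windows, against 6.95%, and NF-κB letters in 2.5%, against 1.49%. E2F letters (TTTGGCGC, TTTCCCGC, TTTGGCGG or TTTCCCGG) were in 7.5% of member windows, 32.7% of replication windows and 5.41% of windows of genes tested. A match is a description of the letters and not a bound site, and a missing match says only that these letters are absent from the window.

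The following stretches cover the 100 bases before the start, 5′ to 3′ on the gene's strand, with CHR and CCAAT letters of either strand in capitals. They were chosen because Ube2c, Kif22 and Ccnb2 have large differences between the combined and active IKKβ groups, Cdk1, Kif11 and Cdc20 middling ones, and Nusap1 a large one with neither element in its window.
Ube2c: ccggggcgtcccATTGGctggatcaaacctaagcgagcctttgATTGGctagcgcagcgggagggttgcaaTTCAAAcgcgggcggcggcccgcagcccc
Kif22: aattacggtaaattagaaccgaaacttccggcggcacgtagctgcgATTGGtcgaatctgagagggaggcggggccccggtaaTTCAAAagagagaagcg
Ccnb2: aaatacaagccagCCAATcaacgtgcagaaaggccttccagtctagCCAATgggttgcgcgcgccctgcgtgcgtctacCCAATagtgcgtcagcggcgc
Cdk1: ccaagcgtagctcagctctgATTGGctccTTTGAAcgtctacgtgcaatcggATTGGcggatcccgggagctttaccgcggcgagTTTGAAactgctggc
Kif11: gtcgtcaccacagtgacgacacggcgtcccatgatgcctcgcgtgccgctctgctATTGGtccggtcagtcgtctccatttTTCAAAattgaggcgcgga
Cdc20: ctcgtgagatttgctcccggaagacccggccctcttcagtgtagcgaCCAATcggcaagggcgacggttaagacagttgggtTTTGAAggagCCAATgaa
Nusap1: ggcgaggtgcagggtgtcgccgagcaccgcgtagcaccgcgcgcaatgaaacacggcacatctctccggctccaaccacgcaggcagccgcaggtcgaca
Ube2c (chr2:164769829-164769928, plus strand) has CCAAT in reverse (ATTGG) starting at -88 and -57, and a reverse CHR (TTCAAA) at -29. In Kif22 (chr7:127042421-127042520, minus strand) the reverse CCAAT begins at -54 and the reverse CHR at -17. Ccnb2 (chr9:70421555-70421654, minus strand) carries 3 evenly spaced CCAAT boxes at -87, -54 and -21, and its near CHR begins at base 5 of the transcript. Cdk1 (chr10:69352913-69353012, minus strand) has 2 CCAAT and 2 CHR matches in this stretch, Kif11 (chr19:37376282-37376381, plus strand) 1 of each, and Cdc20 (chr4:118437344-118437443, minus strand) a CHR between 2 CCAAT boxes. Nusap1 (chr2:119618198-119618297, plus strand) shows no capitals. Genes with and without a CHR had like fold changes, given as a description: between the combined and active IKKβ groups the median log2 fold change was 0.84 for the 30 genes with a CHR and 0.87 for the 8 without.

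**Figure D2:**
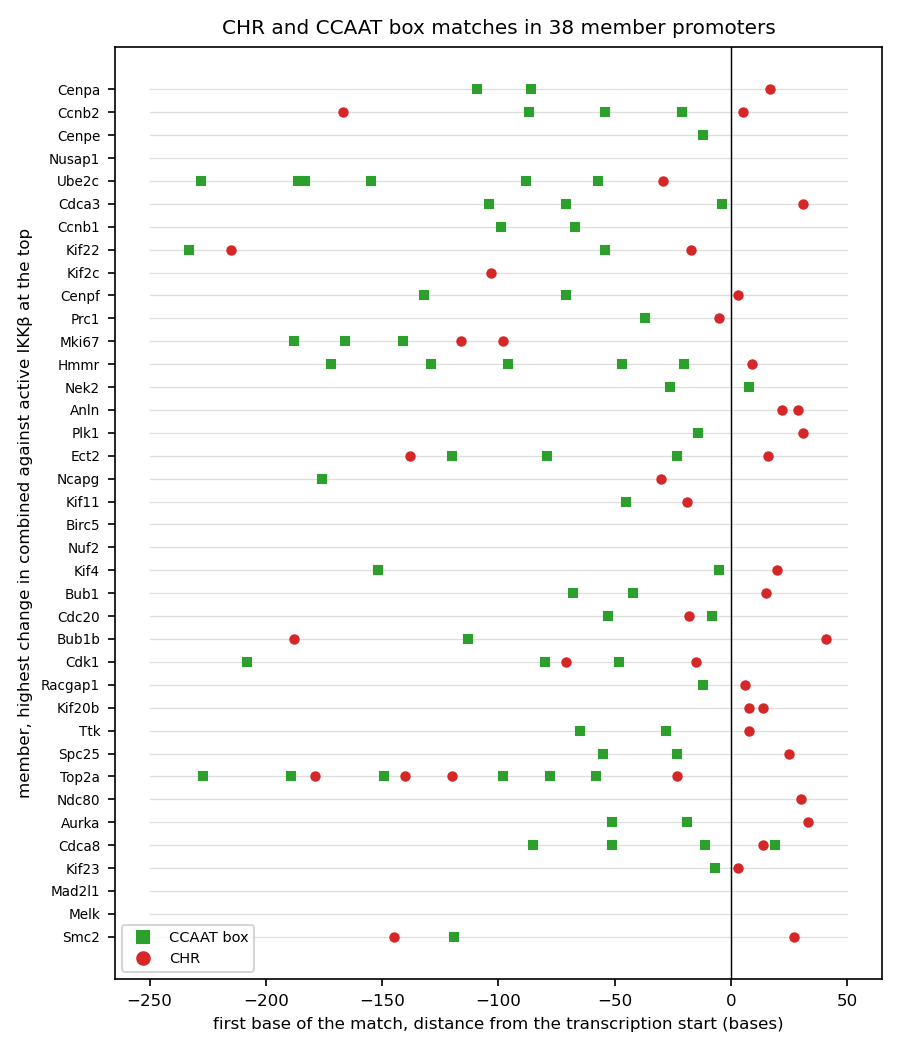
Rows are the 38 genes with a RefSeq window, ordered by log2 fold change of the combined group against active IKKβ; the horizontal axis is the distance in bases of each match from the transcription start (vertical line). CCAAT boxes (green squares) lie mostly upstream, and CHR matches (red circles) lie on both sides of the start, in genes at the top and at the bottom alike. Over all 40 windows the median first base was -68 for CCAAT (quartiles -119.5 and -32.5) and 3 for CHR (quartiles -98 and 17). Where a gene has several windows, a single one is drawn.

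The first comparison concerned Stat3 status with IKKβ active. Every one of the 46 genes had a log2 fold change above 0 in the combined group against active IKKβ (47.7% of genes tested were above 0), with a median of 0.84 and a range from 0.31 to 1.40, beside a median of -0.01 over all 14134 genes tested. For 39 of the 46 all 3 combined libraries lay above all 3 active IKKβ libraries, against 7.12% of genes tested. By edgeR no gene passed on its own: 0 of the 46 were called higher, where 0.0% of all genes were called. An unadjusted edgeR p below 0.05 was found for 45 of the 46, against 4.29% of genes tested. DESeq2 called 13 of the 46, all higher (0.376% of genes by that test): Ccnb1, Ccnb2, Cdc25c, Cdca3, Cenpa, Cenpe, Cenpf, Kif2c, Kif22, Prc1, Nusap1, Ncapg and Mki67. For a single gene the exact permutation test of 3 libraries against 3 has 0.1 as its smallest p, two-sided. Leaving out any library kept the median between 0.59 and 0.99.

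Among the genes of mitotic entry, Ccnb1 (cyclin B1; chromosome 13, 100778650 to 100786570, minus strand, mm10) had 8.23, 6.09 and 5.07 CPM with active IKKβ and 11.1, 14.6 and 17.9 CPM in the combined group. Its Control libraries had 7.72, 12.8 and 11.6 CPM and its Stat3 loss libraries 12.8, 18.9 and 9.71 CPM. The combined libraries were all above the active IKKβ ones, while Control and Stat3 loss overlapped each other. Against active IKKβ, combined libraries had a log2 fold change of 1.17 ± 0.30 (SE; edgeR adjusted p = 0.336, DESeq2 adjusted p = 0.0394). Ccnb2, encoding cyclin B2, was at 1.26 ± 0.25, and Cdca3, a trigger of mitotic entry, at 1.19 ± 0.27. Cdk1, the kinase that these cyclins activate (chromosome 10, 69335146 to 69352938, minus strand), had 37.8, 26.7 and 18.8 CPM with active IKKβ and 36.2, 50.1 and 53.0 CPM in the combined group. Combined replicate 1 lay below active IKKβ replicate 1, so the groups overlapped, and the log2 fold change was 0.74 ± 0.26. All 6 genes of this class had an unadjusted p below 0.05 (4.29% of genes tested) and for 5 of them the groups did not overlap (7.12%).

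Mitotic kinases and checkpoint genes come next. Plk1, which drives centrosome maturation and much of mitosis, had 22.7, 13.9 and 11.6 CPM with active IKKβ and 24.7, 26.0 and 38.6 CPM in the combined group. The groups did not overlap, with a log2 fold change of 0.89 ± 0.28, and Nek2, a centrosomal kinase, had 0.90 ± 0.29. Bub1, a checkpoint kinase at the kinetochore, was at 0.81 ± 0.28, and Mad2l1, which encodes the checkpoint inhibitor MAD2, at 0.60 ± 0.20. Ube2c, the ubiquitin-conjugating enzyme of the anaphase-promoting complex (chromosome 2, 164769898 to 164778822, plus strand), had 32.6, 25.4 and 13.1 CPM with active IKKβ and 39.0, 56.4 and 68.5 CPM in the combined group. All combined libraries were above all active IKKβ libraries, and the log2 fold change was 1.21 ± 0.33. Cdc20, the activator of the same complex, had 0.81 ± 0.27.

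The chromosomal passenger complex, which corrects faulty attachments, had values in a narrow band: Aurkb, its kinase, at 0.83 ± 0.22, Birc5, encoding survivin, at 0.84 ± 0.24, Incenp, its scaffold, at 0.63 ± 0.19, and Cdca8, encoding borealin, at 0.63 ± 0.18. The groups did not overlap for any of the 4 (7.12% of genes tested). Centromere and kinetochore genes held the largest single value. Cenpa, the histone variant that marks centromeres (chromosome 5, 30666777 to 30674830, plus strand), had 18.5, 17.2 and 9.63 CPM with active IKKβ and 31.3, 33.6 and 54.8 CPM in the combined group. Its Control libraries had 22.9, 26.6 and 25.1 CPM and Stat3 loss libraries 34.6, 49.5 and 27.2 CPM. Both Stat3-deleted groups lay above Control, and active IKKβ below it, with no overlap in any of these 3 comparisons. The log2 fold change of combined against active IKKβ was 1.40 ± 0.30 (edgeR adjusted p = 0.251, DESeq2 adjusted p = 0.00455). Cenpe, a kinetochore motor, was at 1.24 ± 0.24 (edgeR adjusted p = 0.218, DESeq2 adjusted p = 0.00199).

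Motor, spindle and chromosome genes close the list. Kif11, the motor that separates spindle poles, had 29.4, 26.0 and 21.2 CPM with active IKKβ and 44.4, 31.8 and 61.4 CPM in the combined group, with a log2 fold change of 0.85 ± 0.23. Kif22, a chromosome-arm motor, was at 1.12 ± 0.26 and Kif23, the motor of centralspindlin, at 0.63 ± 0.28 with overlapping groups. Prc1, which bundles the central spindle, was at 1.02 ± 0.24, Nusap1, a spindle-binding protein, at 1.23 ± 0.24, and Dlgap5, a spindle assembly factor, at 0.75 ± 0.28. Of the cytokinesis genes Anln, encoding anillin, was at 0.89 ± 0.26 and Racgap1, the partner of Kif23, at 0.74 ± 0.23. Mki67, which encodes the proliferation antigen Ki-67 that coats mitotic chromosomes (chromosome 7, 135689784 to 135716361, minus strand), had 142, 97.3 and 93.5 CPM with active IKKβ and 206, 154 and 310 CPM in the combined group. The combined libraries were all higher, with a log2 fold change of 1.01 ± 0.26. Top2a, the topoisomerase that untangles chromosomes, was at 0.69 ± 0.26 with overlapping groups, and Smc2, a condensin core subunit used at other stages too, had the smallest value of the 46 at 0.31 ± 0.19.

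**Figure D3:**
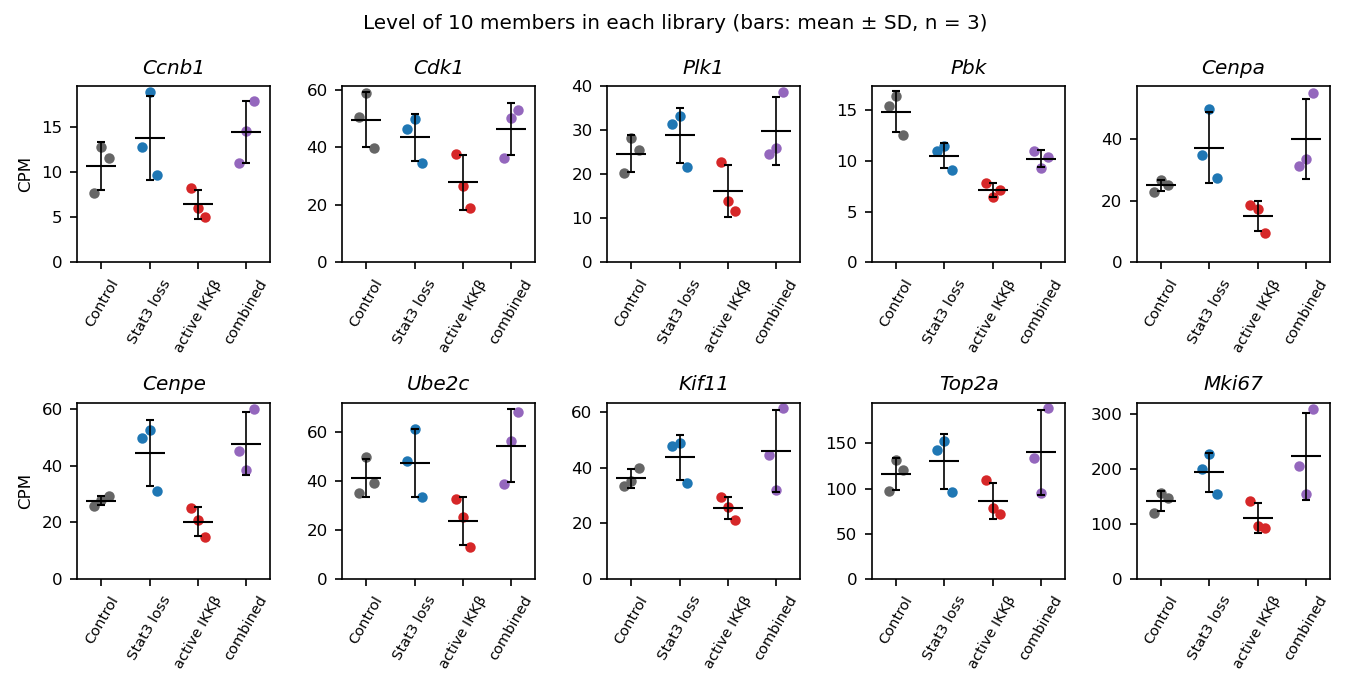
CPM of 10 genes in each library (points, replicates 1 to 3 from left to right) with the mean and SD of each group (bars, n = 3). For each gene shown the active IKKβ group has the lowest mean, and for Pbk the combined and Stat3 loss groups stay below Control.

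Without active IKKβ, Stat3 loss against Control gave a median log2 fold change of 0.24 over the 46 genes, 37 of them above 0 and 9 below (47.3% and 52.7% of genes tested), with a range from -0.49 to 0.68, and -0.02 over all genes tested. edgeR called 0 of the 46 in either direction (0.0% of genes tested), DESeq2 called 0 (0.305% of genes higher and 0.447% lower), and 1 gene in each direction had an unadjusted p below 0.05, against 3.85% of genes higher and 3.65% lower. The groups did not overlap for 3 genes that were higher, Cenpa, Cenpe and Kif20b (6.96% of genes tested), and for Pbk, which was lower (6.1%). Those counts are near or below the background. The median was 0.09 without Stat3 loss replicate 2, 0.12 without Control replicate 1 and 0.41 without Stat3 loss replicate 3.

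Markers of other cell types were summed in each library beside these values. The 7 smooth muscle markers, none at 0 in any library, summed to 2010 to 2580 CPM in Control and 933 to 1670 with Stat3 loss, and to 1100 to 4250 with active IKKβ and 1210 to 1890 in the combined group. All 7 were below 0 in both Stat3 comparisons (52.7% and 52.3% of genes tested). For 6 of them Stat3 loss lay wholly below Control (6.1% of genes tested). The combined group lay wholly below active IKKβ for 0 of them (7.54%). The 8 fibroblast markers summed to 806 to 2500 CPM in Control, 852 to 2100 with Stat3 loss, 652 to 1560 with active IKKβ and 616 to 1360 in the combined group. Of these, 6 were below 0 with Stat3 loss and all 8 in the combined group against active IKKβ (52.7% and 52.3% of genes tested). The 8 endothelial markers summed to 72.2 to 119 CPM in Control, 44.5 to 58.1 with Stat3 loss, 53.2 to 200 with active IKKβ and 35.1 to 101 in the combined group. The 8 adipocyte markers summed to 14.6 to 169, 9.88 to 15.2, 30.7 to 40.9 and 11.4 to 20.3 CPM in the same order, with up to 6 of them at 0 in a library. The 8 nerve markers summed to 111 to 294, 118 to 137, 103 to 122 and 84.7 to 107 CPM. All 8 endothelial markers were below 0 in both Stat3 comparisons (52.7% and 52.3% of genes tested). So were all 6 adipocyte and all 7 nerve markers that passed the filter. Skeletal muscle (10 markers) varied within groups, from 23.3 to 320 CPM in Control, 53.9 to 1800 with Stat3 loss, 69.1 to 982 with active IKKβ and 48.0 to 279 in the combined group. Its markers differed in direction: 9 of 10 were above 0 with Stat3 loss (47.3% of genes tested). All 10 were below 0 in the combined group against active IKKβ (52.3%). The suprabasal keratins Krt4 and Krt13 took 5.22% to 13.9% of counts in Control, 6.01% to 10.4% with Stat3 loss, 5.06% to 13.8% with active IKKβ and 4.05% to 13.4% in the combined group. All 19 suprabasal markers summed to 67800 to 214000, 71900 to 147000, 62300 to 211000 and 46400 to 185000 CPM in that order. The part of all these markers in the member values was not tested.

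Cenpe had 26.0, 27.9 and 29.2 CPM in Control and 49.8, 52.6 and 31.0 CPM with Stat3 loss, a log2 fold change of 0.68 ± 0.24 (edgeR adjusted p = 0.537). Replicate 3 of Stat3 loss was near Control, and the other 2 libraries were well above it. Cenpa was at 0.58 ± 0.29, Cdca3 at 0.49 ± 0.26, Kif20a, a motor of the central spindle, at 0.49 ± 0.28, Nek2 at 0.47 ± 0.28 and Mki67 at 0.45 ± 0.26. At the other end stood Pbk, a mitotic kinase also called TOPK, at -0.49 ± 0.16, Smc2 at -0.25 ± 0.18, Mad2l1 at -0.25 ± 0.20, Cdk1 at -0.19 ± 0.26 and Spc25, a subunit of the NDC80 complex, at -0.18 ± 0.23. None of these passed. All 7 kinesins, all 5 spindle genes and all 3 cytokinesis genes had values above 0, while the other classes had both signs.

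The interaction, the change with Stat3 loss under active IKKβ minus that without it, tested whether these differences were unequal. All 46 estimates were above 0 (49.5% of genes tested), with a median of 0.62 and a range from 0.26 to 1.01, beside -0.00 over all genes tested. edgeR called 0 of the 46 (0.0% of genes tested), with an adjusted p = 1 for each, DESeq2 called 0 (0.0% of genes higher and 0.0426% lower), and 11 were higher and 0 lower at an unadjusted p below 0.05, against 1.92% and 2.74% of genes tested. Pbk had 1.01 ± 0.23, Ube2c 1.0 ± 0.46, Cdk1 0.93 ± 0.36, Ncapg, a condensin subunit, 0.92 ± 0.30, Ccnb1 0.80 ± 0.42 and Kif20b, a cytokinesis motor, 0.26 ± 0.32. The median was 0.38 without combined replicate 3. A difference between the 2 backgrounds was not established for any single gene.

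**Figure D4:**
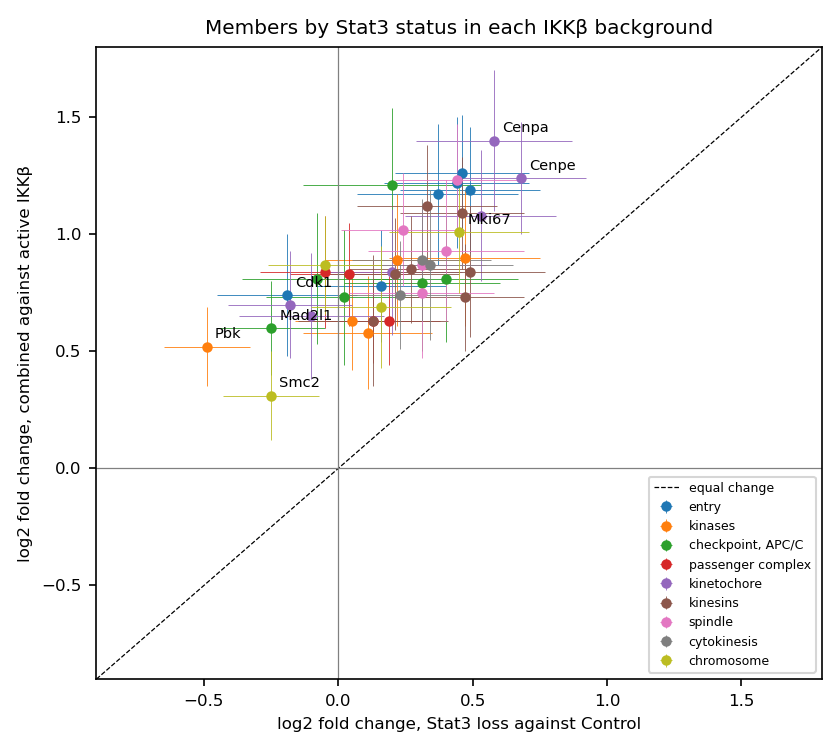
Each point is a gene, with its log2 fold change for Stat3 loss against Control on the horizontal axis and for the combined group against active IKKβ on the vertical axis; bars are standard errors and colours are functional classes. The 2 axes share no library, and all 46 points lie above the dashed line of equal change, Pbk and Smc2 lowest among them.

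In active IKKβ against Control, with Stat3 intact, all 46 genes had a log2 fold change below 0 (49.3% of genes tested), with a median of -0.61 and a range from -1.05 to -0.26, beside 0.00 over all genes tested. Pbk was the only gene called by edgeR (1 of 46 lower, against 0.0566% of genes tested), and DESeq2 called Pbk and Mad2l1 (0.844% of genes lower and 2.29% higher by that test). The groups did not overlap for 32 of the 46, all lower, against 8.21% of genes tested lower and 9.34% higher. An unadjusted p below 0.05 was reached by 32, all lower, against 6.0% of genes lower and 7.03% higher. This comparison and the previous ones use the active IKKβ or the Control libraries again, so they are not independent of each other.

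Pbk (chromosome 14, 65805837 to 65817822, plus strand) had 15.4, 16.4 and 12.5 CPM in Control and 7.85, 6.48 and 7.09 CPM with active IKKβ. It had 11, 11.4 and 9.05 CPM with Stat3 loss and 11, 9.29 and 10.4 CPM in the combined group. Control was highest, active IKKβ lowest and the Stat3-deleted groups lay between them, overlapping each other only. Pbk fell by 1.05 ± 0.17 on the log2 scale with active IKKβ (edgeR adjusted p = 0.0147), to 0.483 of Control. The call was lost without Control replicate 1 (edgeR adjusted p = 0.0751), Control replicate 2 (0.0733), active IKKβ replicate 2 (0.0676) or active IKKβ replicate 3 (0.0631). With both gastric-rich libraries left out, edgeR called 3 of the 46 lower, Birc5, Kif22 and Pbk, among 83 genes called in either direction. How many of the 83 were lower is not given here. In the fit of all 12 libraries 0.0566% of genes tested were called lower and 0.899% higher.

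Of the rest, Cdk1 was at -0.84 ± 0.26, Ube2c at -0.81 ± 0.33, Ccnb2 at -0.78 ± 0.25, Mad2l1 at -0.74 ± 0.20 (edgeR adjusted p = 0.161, DESeq2 adjusted p = 0.0318), Ccnb1 at -0.73 ± 0.30, Cenpa at -0.72 ± 0.30 and Ncapg at -0.69 ± 0.21. Aurkb had -0.63 ± 0.22 and Plk1 -0.62 ± 0.28. The smallest differences were those of Kif20b at -0.26 ± 0.22, Incenp, Nek2, Mki67 at -0.36 ± 0.26 and Kif23. Active IKKβ replicate 1, with the gastric transcripts, had the highest member mean of its group, 4.43 log2 CPM against 4.13 and 3.80. It also had the lowest Krt4 and Krt13 share of its group, 5.06% against 13.8% and 12.8%. Its basal markers summed to 29600 CPM, against 22300 and 21300. In Control and the combined group, the library with the lowest keratin share (5.22% and 4.05%) had the lowest member mean (4.52 and 4.74). Leukocyte markers were highest in the active IKKβ group: their 17 genes summed to 590 to 788 CPM there, against 104 to 234 in Control, 81.5 to 164 with Stat3 loss and 119 to 343 in the combined group, with 1 to 4 of them at 0 in a library. Basal markers summed to 21300 to 29600 CPM with active IKKβ, 21900 to 34900 in Control, 24500 to 32000 with Stat3 loss and 19400 to 27300 in the combined group. The part of any of these markers in the member values was not tested.

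Active IKKβ was also compared on the Stat3-deleted background. The combined group against Stat3 loss gave a median of 0.08, with 32 genes above 0 and 14 below (52.1% and 47.9% of genes tested), a range from -0.22 for Kif20a to 0.23 for Ncapg, and standard errors of 0.17 for Pbk up to 0.33 for Ube2c. edgeR called 0 of 46 (0.41% of genes tested higher and 0.0495% lower), DESeq2 called 0 (1.38% and 0.731%), and 0 had an unadjusted p below 0.05 (4.41% and 4.54%). The groups overlapped for all 46 (no overlap for 6.06% of genes tested higher and 6.87% lower). The sign of the median was not stable: it was -0.10 without Stat3 loss replicate 3 and -0.15 without combined replicate 3.

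Both changes together against Control gave a median of 0.27, with 42 of 46 above 0 (50.3% of genes tested). edgeR called 0 (0.566% of genes tested higher and 0.318% lower), DESeq2 called 0 (1.67% and 1.7%), and 5 genes were higher and 1 lower at an unadjusted p below 0.05 (5.65% and 5.85%). The groups did not overlap for 9 genes that were higher (7.2% of genes tested) and for Pbk, which was lower (7.85%). Cenpe was at 0.79 ± 0.24, Cenpa at 0.68 ± 0.29, Mki67 at 0.65 ± 0.26 and Pbk at -0.53 ± 0.17. The median rested on combined replicate 3, without which it was 0.02, and it was 0.15 without Control replicate 1.

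Of 93 other genes of G2 and mitosis, from the FOXM1 regulator to further kinetochore and condensin subunits, 86 were below 0 with active IKKβ against Control (median -0.47, 49.3% of genes tested below 0), and 78 were above 0 in the combined group against active IKKβ (median 0.46, 47.7% of genes tested above 0). edgeR called 0 of the 93 in both comparisons, with 38 and 42 at an unadjusted p below 0.05 in those directions (6.0% and 4.29% of genes tested), and DESeq2 called 9 and 9 (0.844% and 0.376%). In the combined group against active IKKβ the smallest adjusted p values belonged to Cdkn3, a CDK-associated phosphatase, at 1.14 ± 0.23, the spindle genes Psrc1 at 1.01 ± 0.21 and Ckap2 at 1.02 ± 0.23, and the chromatin protein gene Hmgb2 at 0.68 ± 0.15. With Stat3 loss against Control the median was -0.06 and 41 of 93 were above 0 (47.3% of genes tested). There Ncapg2, a condensin II subunit, was at -0.71 ± 0.17, Mybl2, a partner of MuvB, at -0.87 ± 0.30, Cdc25a, a CDK-activating phosphatase, at -0.34 ± 0.12 and Psrc1 at 0.62 ± 0.21. DESeq2 called Ncapg2 alone of these 93 (adjusted p = 0.032, with 0.447% of genes called lower).

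DNA replication genes, the step before, are set beside the mitosis genes without a test of the difference. Of 52 such genes 51 were below 0 with Stat3 loss (median -0.88, 52.7% of genes tested below 0). In the combined group against active IKKβ 47 were below 0 (median -0.56, 52.3% of genes tested). The 46 mitosis genes had medians of 0.24 and 0.84 in the same comparisons. edgeR called 0 of the 52 in either of these comparisons, with 44 and 30 lower at an unadjusted p below 0.05 (3.65% and 5.59% of genes tested), and DESeq2 called 24 and 13 lower (0.447% and 0.553%). Pcna, the polymerase clamp, was at -0.85 ± 0.15, Cdc45, a helicase component, at -1.18 ± 0.22 and the helicase subunit gene Mcm4 at -1.10 ± 0.19 with Stat3 loss. In the combined group against active IKKβ, Orc1, of the origin recognition complex, was at -2.21 ± 0.37, the uracil glycosylase gene Ung at -1.76 ± 0.29, Mcm2 at -1.39 ± 0.26 and Mcm4 at -1.16 ± 0.19.

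Replication and mitosis genes had the same sign in another comparison. With active IKKβ against Control all 52 replication genes were below 0 (49.3% of genes tested), with a median of -0.50 beside -0.61 for the mitosis genes. edgeR called 0 of the 52 (0.0566% of genes tested lower and 0.899% higher), and 26 were lower at an unadjusted p below 0.05 (6.0%). DESeq2 called 6 lower (0.844%). In the combined group against Stat3 loss 43 of 52 were below 0 (median -0.25, beside 0.08), against 47.9% of genes tested. Neither tool called any of the 52 (0.0495% of genes tested lower by edgeR and 0.731% by DESeq2). At an unadjusted p below 0.05, 9 were lower (4.54% of genes tested). In the combined group against Control 51 of 52 were below 0 (median -1.09, beside 0.27), against 49.7% of genes tested. There edgeR called 24 of the 52 lower, against 0.318% of genes tested, and DESeq2 40, against 1.7%.

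Within each library the mean log2 CPM of the 46 mitosis genes minus that of the 52 replication genes compares the steps without reference to another sample. It was -0.57, -0.39 and 0.23 in Control, and -0.13, -0.16 and -0.80 with active IKKβ. With Stat3 loss it was 0.83, 1.29 and 0.34, and in the combined group 0.93, 0.81 and 1.64. All 6 libraries with Stat3 deleted were above all 6 with it intact, the closest being Stat3 loss replicate 3 (0.34) and Control replicate 3 (0.23). Both gene lists were chosen with earlier results of these data known, so this separation is a description and not a test.

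**Figure D5:**
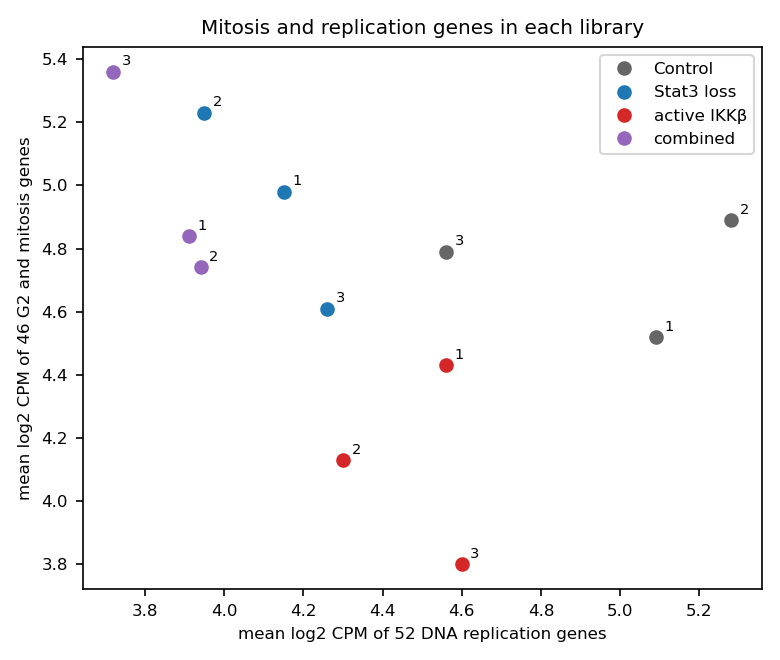
Each point is a library, labelled by replicate number and coloured by group, with the mean log2 CPM of 52 replication genes on the horizontal axis and of 46 mitosis genes on the vertical axis. Active IKKβ libraries lie lowest (3.80 to 4.43), and both Stat3-deleted groups lie to the left, at replication means of 3.72 to 4.26.

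Per kilobase of exon, Control levels of the 46 genes ran from 1.51 CPM per kb for Ncapg to 35.8 for Cdc20, with a median of 5.92. Cdc20, Ccnb2 at 19.8, Ube2c at 15.9 and Mki67 at 14.1 headed this scale. Counts per gene and library ran from 65 to 5923, and Pbk had 134 to 329, so counting error weighs more for some of the 46 than for others.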

How the data were processed

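Per the submitters' processing notes, cutadapt 1.13, STAR, HTSeq 0.6.1p1, DESeq2 and the mm10 build were used; strand and annotation are not given in the sources used here. The deposited files hold raw read counts per gene symbol (23337 in each), with no scaling. Positions and exon lengths are from GENCODE M21, promoter windows from RefSeq GRCm38.p6. The analysis ran in R 4.3.3 with edgeR 4.0.16, which loads limma 3.58.1: filterByExpr (14134 genes kept), TMM factors and 1 robust quasi-likelihood fit to the 4 groups, with Benjamini-Hochberg adjustment over all genes and calls below 0.05. DESeq2 1.42.0 was an alternative. Log2 CPM used a prior count of 2. SEs belong to the fitted log2 fold changes.

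Depth was 14816468 to 30188363 counts per library. No pair of libraries agreed within counting noise (smallest chi-square 26.1 per degree of freedom). Of 18 same-numbered library pairs 9 had deviations correlated above 0.1 (-0.408 to 0.454), so replicate numbers were not taken as pairs over the series. The members and lists were chosen with earlier results of these data known. Named genes are 10 fixed members, those called, the highest and lowest of each class by Stat3 status, and up to 4 genes of each other list with the smallest adjusted p, of which 1 is not reported here. Other names (Cdc25c, Cenpf, Kif2c, Kif20b, Ncapg) were chosen after their values were seen.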

Additional observations from a re-analysis of the deposited data

How the results depend on the processing

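Over the alternatives run, the median of the 46 genes kept its sign in 5 comparisons; only the combined group against Stat3 loss (0.08) changed it, to -0.04 with library totals, -0.10 without both gastric-rich libraries, and -0.15 to 0.22 leaving out 1 library at a time. With DESeq2 in place of edgeR, 13 members instead of 0 were called in the combined group against active IKKβ, and 2 instead of 1 in active IKKβ against Control. In the latter, 0 were called with library totals (66 of all genes, either direction) or with only the groups compared (61 of all genes). Without both gastric-rich libraries 3 were called (83 of all genes), and 0 to 1 leaving out 1 library. The cause was not tested. Counts of genes without overlap, recomputed leaving out each library (chosen after seeing the data), were 39 to 45 for the combined group against active IKKβ (8.49% to 19.9% of genes tested) and 32 to 44 for active IKKβ against Control (9.95% to 20.1%). Such counts cannot fall when a library is left out, so they say nothing about stability.

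With the replicate number as a block, the medians were 0.24 for Stat3 loss, 0.83 for the combined group against active IKKβ, 0.63 for the interaction, -0.62 for active IKKβ, 0.07 for the combined group against Stat3 loss and 0.27 against Control. The block changed no count of calls among the 46. Over the series the numbers were not taken as pairs, but the 3 same-numbered pairs of the Stat3 loss and combined groups correlated at 0.121, 0.259 and 0.138. Those of Control with the combined group were at 0.0893, 0.454 and 0.418, and of Control with Stat3 loss at 0.284, 0.0728 and 0.0876. Pairs of active IKKβ with each other group had both signs, such as -0.00482, -0.336 and 0.268 with the combined group. Whether the numbers mark a shared source is not given in the labels.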
